A study of Mus musculus with 9 samples.

Results

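The MHC class II genes were measured in primary microglia cultured from the brains of newborn mice, the resident macrophages of the brain, that were left in PBS or stimulated for 4 hours with LPS or with IL-4. The group was chosen by gene symbol. It holds 10 genes, and each had 1 row among the 21212 rows of the array table, so all 10 were measured on every array. They were H2-Aa, H2-Ab1 and H2-Eb1 (the classical chains), H2-DMa, H2-DMb1, H2-DMb2, H2-Oa and H2-Ob (the non-classical chains), Cd74 (the invariant chain) and Ciita (the class II transactivator). The study used 9 Affymetrix Mouse Exon 1.0 ST arrays, with 3 arrays for each of PBS, LPS (100 ng/ml, the cell wall component of Gram-negative bacteria that triggers TLR4) and IL-4 (20 ng/ml, a cytokine of type 2 immunity). All cells came from wild-type CD-1 pups aged P0 to P1, with the brains of a litter pooled, and all were expanded for 5 to 7 days with M-CSF and GM-CSF at 10 ng/ml each, then kept without serum overnight, so the PBS arrays also describe cells grown in both factors. CD-1 is an outbred stock, and the labels do not give the MHC haplotype of the pups. The comparison of LPS with PBS asks how classical (M1) stimulation sets these genes, that of IL-4 with PBS how alternative (M2a) stimulation does, and that of LPS with IL-4 whether both stimuli left them at different levels.

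MHC class II molecules are pairs of an alpha and a beta chain that carry peptides from endosomes to the cell surface and show them to CD4+ T cells. The invariant chain, encoded by Cd74, holds the peptide groove closed on the way to the endosome, where cathepsins trim it to a short remnant called CLIP. H2-DM (H2-DMa with H2-DMb1 or H2-DMb2) exchanges CLIP for other peptides, and H2-O (H2-Oa with H2-Ob) inhibits H2-DM. Transcription of class II genes depends largely on CIITA, a coactivator that does not bind DNA itself. The RFX complex at the X box, CREB at the neighboring CRE-like box and NF-Y at the Y box hold it on the promoters. Microglia carry little surface class II in the healthy brain, and interferon gamma is the best known inducer of Ciita in these cells.

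The promoter stretches of the class II genes are shown because CIITA acts through these boxes. The windows are those of RefSeq on GRCm38.p6, from 250 bases before to 50 bases after each gene start. The RefSeq table used here held windows for 7 of the 10 genes, with 2 windows for H2-DMa. Each stretch below is 60 bases long, runs 5′ to 3′ on the strand of the gene and lies wholly before the gene start. Capitals mark a Y box (TGATTGG), the fixed letters of an X-like motif (AACNNNTGA) and a CRE (TGACGTCA).
H2-Aa, chr17:34287859-34287918, minus strand: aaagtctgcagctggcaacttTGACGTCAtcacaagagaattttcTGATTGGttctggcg
H2-Eb1, chr17:34305761-34305820, plus strand: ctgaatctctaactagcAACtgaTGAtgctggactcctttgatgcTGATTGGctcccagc
H2-DMb1, chr17:34153083-34153142, plus strand: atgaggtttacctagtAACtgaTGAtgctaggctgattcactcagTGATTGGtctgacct
H2-DMb2, chr17:34145112-34145171, plus strand: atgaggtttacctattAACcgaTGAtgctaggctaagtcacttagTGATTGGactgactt
H2-Oa, chr17:34092289-34092348, plus strand: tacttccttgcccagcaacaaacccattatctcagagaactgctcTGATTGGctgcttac
H2-Ob, chr17:34238801-34238860, plus strand: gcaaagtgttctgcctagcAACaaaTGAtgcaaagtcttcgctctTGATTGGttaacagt

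The Y box letters stood in the windows of 6 of the 7 genes, beginning between 45 and 92 bases before the start, and in 7.82% of all 32851 windows of this length when both strands were searched. The X-like letters stood in 4 of the 7 (H2-Eb1, H2-DMb1, H2-DMb2 and H2-Ob) against 11.9% of all windows. An X-like motif with a Y box beginning at most 40 bases after its end, on the same strand and with overlap of the motifs allowed, stood in those same 4 genes and in 0.14% of all windows. The CRE letters stood in the H2-Aa window and in 1.79% of all windows. H2-DMa held none of these letters in either window. A match of letters is a description of sequence and was not tested as a binding site, and the boxes of class II promoters vary in letters that this search did not allow.

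Under LPS, 2 of the 10 genes passed the test against PBS, and both were higher. They were H2-Oa, which rose 2.08-fold, and Ciita, which rose 1.23-fold. No gene was lower by limma's moderated test, where 1 gene (H2-DMb1) was lower at an unadjusted p under 0.05. The methods' t-test with Benjamini-Hochberg adjustment called 0 genes in either direction, with 1 higher and 1 lower before adjustment. Over all rows that t-test called 2253 higher and 3050 lower after adjustment, and its counts before adjustment were not computed over all rows. The main test was that of limma fitted over all 21212 rows and all 9 arrays, with Benjamini-Hochberg adjustment and a threshold of 0.05. Of all rows, 15.4% were called higher and 22.4% lower by limma in this comparison. When each array was centred on its own median instead, 27.7% of rows were higher and 15.7% lower, which moved the LPS difference of every row up by 0.11 at the median on the log2 scale. The classical chains, which present the peptide, did not pass in this comparison.

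Under IL-4, H2-DMa alone of the 10 passed the test against PBS and rose 1.51-fold. No gene was lower by limma's test, where Ciita was lower at an unadjusted p under 0.05. The methods' t-test called 0 genes in either direction after adjustment and 2 higher and 1 lower before it. Over all rows that t-test called 434 higher and 282 lower after adjustment, and its counts before adjustment were not computed over all rows. Of all rows, 3.35% were called higher and 2.05% lower against PBS by limma. Between the stimuli, Ciita was 1.45-fold higher and H2-DMa 1.81-fold lower under LPS than under IL-4, and the other 8 genes did not pass. In that comparison 21.0% of all rows were higher and 25.9% lower, or 45.1% and 17.4% with each array centred on its median. The comparisons of LPS and of IL-4 with PBS share the same 3 PBS arrays, so the values of both are given side by side and no agreement between them is read.

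**Figure D1:**
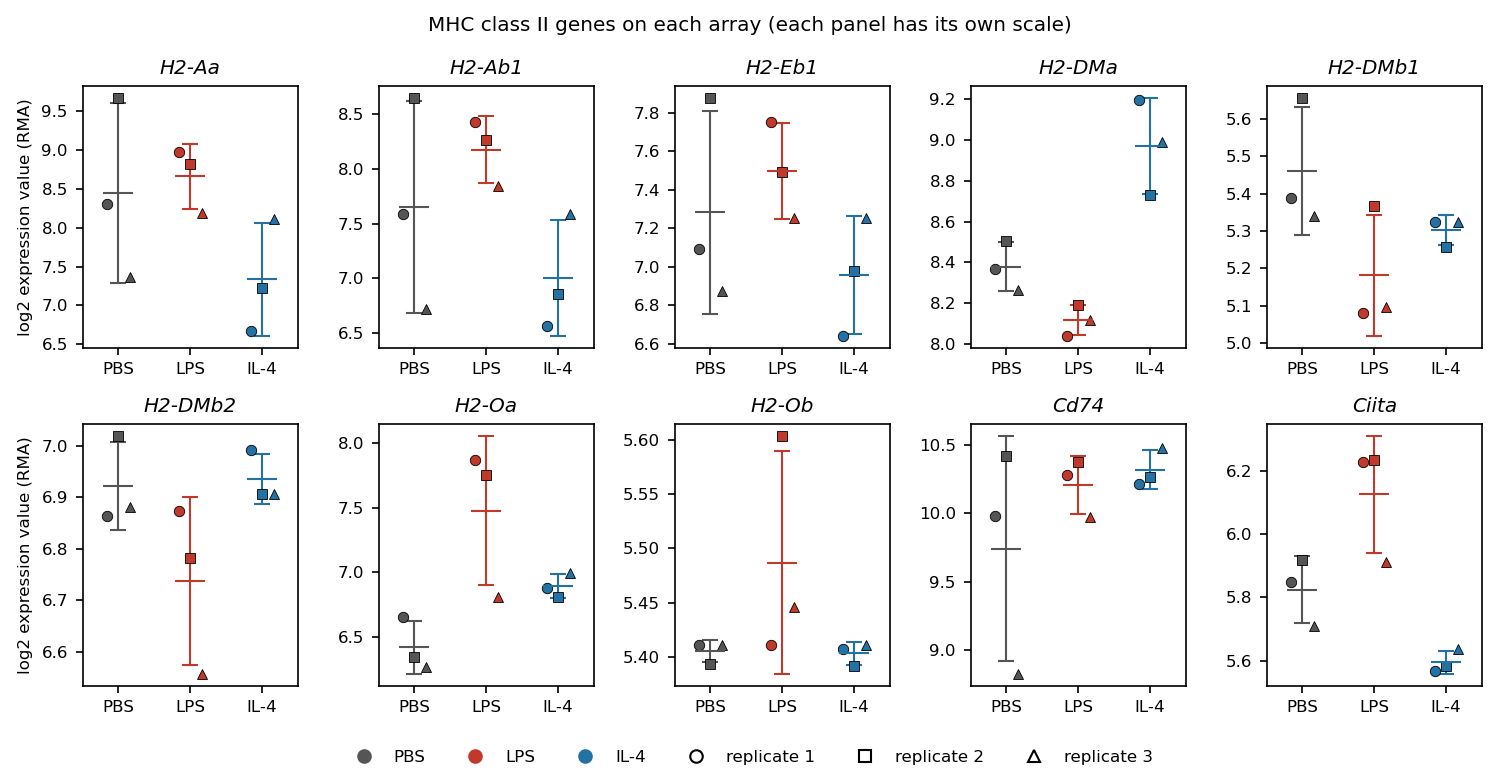
Log2 expression value (RMA) of each of the 10 MHC class II genes on the 9 arrays, with 1 panel per gene and its own vertical scale. Symbols are arrays by replicate number, and bars are the mean and SD of the 3 arrays of a condition. The PBS arrays of H2-Aa span 2.31, whereas those of H2-DMa span 0.24 and lie below all IL-4 arrays.

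The classical chains varied more between PBS arrays than between conditions. H2-Aa, the alpha chain of I-A, had log2 expression values of 8.30, 9.67 and 7.37 on the PBS arrays, 8.97, 8.83 and 8.19 on the LPS arrays and 6.67, 7.22 and 8.11 on the IL-4 arrays, in the order of replicates 1 to 3. The PBS arrays reached both above the highest LPS array and into the range of the IL-4 arrays, and the LPS and IL-4 arrays did not overlap. LPS was 0.22 above PBS on the log2 scale, with a 95% interval from -1.09 to 1.53 and an adjusted p of 0.801 by limma. IL-4 was -1.11 from PBS, with an interval from -2.42 to 0.20 and an adjusted p of 0.314 by limma. The interval for IL-4 thus held both no change and a difference of -2.42, which 3 arrays with this spread could not tell apart. The difference was -0.50 without PBS replicate 2 and -1.65 without PBS replicate 3, and neither passed (adjusted p = 0.664 and 0.082 by limma).

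H2-Ab1, the beta chain that pairs with H2-Aa, had values of 7.59, 8.65 and 6.71 under PBS, 8.43, 8.27 and 7.84 under LPS and 6.56, 6.85 and 7.59 under IL-4. As for H2-Aa, PBS covered nearly the whole scale and the LPS and IL-4 arrays were apart. The log2 difference was 0.53 for LPS against PBS (95% interval -0.52 to 1.58) and -0.65 for IL-4 against PBS (-1.70 to 0.40). H2-Eb1, the beta chain of I-E, had values of 7.09, 7.88 and 6.87 under PBS, 7.75, 7.49 and 7.25 under LPS and 6.64, 6.98 and 7.25 under IL-4. Its highest IL-4 array met its lowest LPS array. The differences from PBS were 0.22 for LPS (-0.39 to 0.83) and -0.32 for IL-4 (-0.93 to 0.28).

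The widest contrast for the classical chains was between the stimuli. LPS stood above IL-4 by 1.33 ± 0.572 (SE) for H2-Aa, by 1.18 ± 0.459 for H2-Ab1 and by 0.54 ± 0.266 for H2-Eb1 on the log2 scale, that is 2.51-, 2.26- and 1.45-fold. None passed in the fit over 9 arrays (adjusted p = 0.087, 0.0638 and 0.124 by limma), in which the PBS arrays enter the estimate of spread. In the fit over the 6 arrays of this comparison, where PBS does not enter, H2-Aa and H2-Ab1 passed (adjusted p = 0.0298 and 0.0149 by limma) and H2-Eb1 did not (0.0518). Leaving out PBS replicate 2 gave 0.0338, 0.0214 and 0.0437 for H2-Aa, H2-Ab1 and H2-Eb1, and leaving out PBS replicate 3 gave 0.0422, 0.0227 and 0.0901. The size of the difference was the same in each of these fits and only the spread changed. Over all 18 alternatives the adjusted p ranged from 0.0274 to 0.238 for H2-Aa, from 0.0149 to 0.177 for H2-Ab1 and from 0.0437 to 0.318 for H2-Eb1.

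The classical chains moved together from array to array. Within PBS all 3 were highest on replicate 2 and lowest on replicate 3, within LPS all 3 were highest on replicate 1 and lowest on replicate 3, and within IL-4 all 3 were highest on replicate 3 and lowest on replicate 1. Around the condition means, over 9 arrays that share these means, the deviations of H2-Aa correlated with those of H2-Ab1 at r = 0.995 and with those of H2-Eb1 at r = 0.969. The invariant chain followed the same arrays, with r = 0.872 to H2-Aa. For Ciita r to H2-Aa was 0.707, and for H2-DMa it was 0.202. The SD of arrays around the condition means was 0.826 for H2-Aa and 0.661 for H2-Ab1, above 99.5% and 99% of all rows, while that of a middle row was 0.102.

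**Figure D2:**
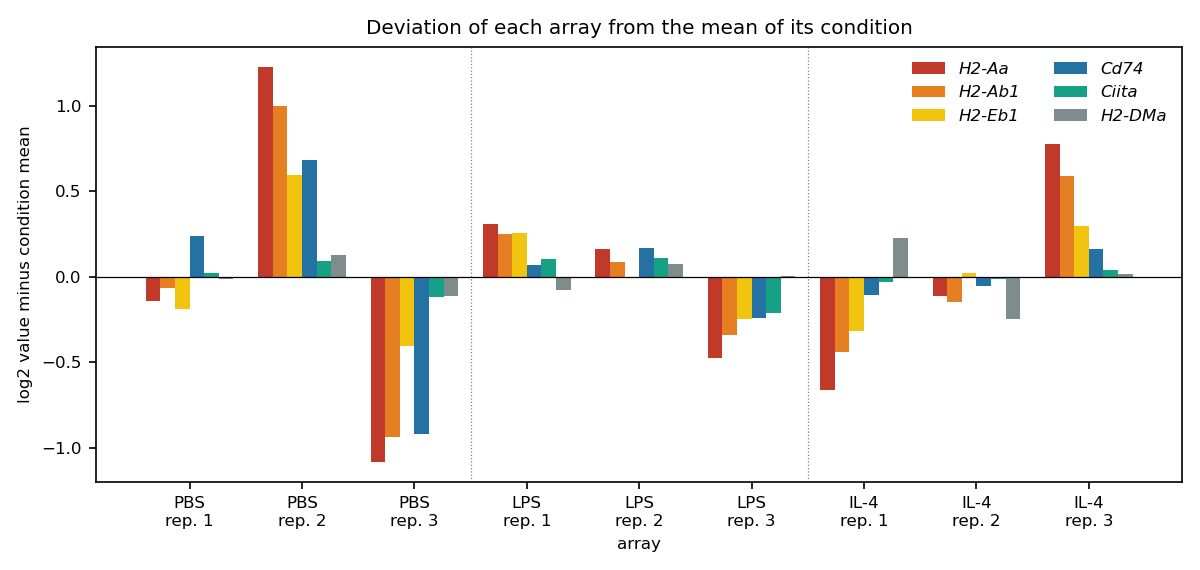
Log2 value of each array minus the mean of its condition for 3 classical chains, Cd74, Ciita and H2-DMa, with 1 group of bars per array. The bars of H2-Aa, H2-Ab1, H2-Eb1 and Cd74 all point up on PBS replicate 2 and down on PBS replicate 3, where that of H2-Aa is -1.08, and those of H2-DMa lie between -0.24 and 0.23.

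Markers of other cells also differed between the arrays of a condition. PBS replicate 3, where class II was lowest, and LPS replicate 3 had mean log2 levels of 9.01 and 8.66 over 11 measured genes of motile cilia, which mark ependymal cells, against 6.91 to 7.27 on the other PBS and LPS arrays and 8.33 to 8.61 under IL-4. Oligodendrocyte lineage genes (10 measured) were likewise at 8.58 and 8.40 on these arrays against 7.40 to 7.62 on the other PBS and LPS arrays. The microglial list (9 measured, with Cx3cr1, Csf1r and Itgam among them) was at 9.27, 9.37 and 10.1 on PBS replicates 1 to 3. On LPS replicates 1 to 3 it was at 8.80, 8.75 and 9.23, and under IL-4 between 9.63 and 9.78. Replicate 3 was thus its highest array under both PBS and LPS, though P2ry12 and Trem2 were lowest on LPS replicate 3. In bulk RNA a smaller share of cells with class II and less class II RNA per cell cannot be told apart. Without replicate 3 of PBS and LPS, H2-Aa was -0.09 from PBS under LPS. Its LPS to IL-4 difference was 1.56, which passed with an adjusted p of 0.0274 by limma. H2-Ab1 also passed between the stimuli in that fit and H2-Eb1 did not. The fit kept all IL-4 arrays, at 8.33 to 8.61 for motile cilia, beside 6.91 to 7.27 on the PBS and LPS arrays left. The part of this gap in the differences was not tested.

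Dendritic cells, B cells, border macrophages and monocytes are other cells that could bring class II RNA into a brain preparation. The mean over 10 dendritic cell markers was 6.004 to 6.241 under PBS, 6.237 to 6.537 under LPS and 6.119 to 6.199 under IL-4. PBS replicate 2 was the highest PBS array. Of the 10, Ccr7 and Batf3 were higher under LPS, Itgax and Batf3 were higher under IL-4, none was lower in either, and Flt3 (5.24 to 5.89 over the 9 arrays) and Zbtb46 (6.74 to 7.00), which define the lineage, did not pass. Ccr7, a homing receptor that mature dendritic cells raise, was singled out here after its values were seen. It was at 6.33, 7.81 and 6.01 under PBS, 8.78, 8.51 and 7.71 under LPS and 6.09, 7.21 and 6.71 under IL-4. It so had the array order of the classical chains under PBS and LPS but not under IL-4, and so did Kmo. Itgax, in contrast, was highest on replicate 3 of both PBS and LPS, and Siglech and Zbtb46 were highest on PBS replicate 3. The mean over 7 B cell markers was between 5.29 and 5.57 on all arrays. Cd79a (0.29) and Fcer2a (0.30) were higher under LPS by limma and none was lower. Before adjustment 3 were higher and 1 was lower, namely Cd22 (-0.625, adjusted p = 0.0585 by limma). Under IL-4 none passed in either direction by limma, before or after adjustment. Cd79a and Fcer2a were dim, with mean levels above only 4.77% and 14.9% of all rows, whereas that of Cd22 was above 59.4%. Cd22, Ms4a1 and Pax5 were lowest on replicate 3 of both PBS and LPS. Blk shared its lowest value there with replicate 2, and Cd79a, Cd79b and Fcer2a were not lowest on both. The mean over 8 border macrophage markers was 8.25 to 8.35 under PBS, 7.97 to 8.32 under LPS and 8.22 to 8.28 under IL-4. None passed under LPS by limma (1 was higher at an unadjusted p under 0.05), and under IL-4 Pf4 rose and Siglec1 fell. Mrc1, at 10.82, 10.90 and 9.89 under PBS and 10.29, 10.40 and 8.77 under LPS, and Cbr2, at 9.76, 9.75 and 8.14 and at 9.30, 9.46 and 7.68, were lowest on replicate 3 of both conditions like the classical chains. In contrast, F13a1, Siglec1, Pf4 and Ms4a7 were highest on replicate 3 of both. The mean over 4 monocyte markers was 6.38 to 6.56 under PBS, 6.50 to 6.60 under LPS and 7.76 to 7.89 under IL-4. Under LPS, Plac8 rose and Ccr2 fell. Under IL-4, Chil3, which alternative activation also raises, rose by 5.47 and so carried the higher mean, and Fn1 rose by 0.39. Ccr2 (-0.35, adjusted p = 0.177 by limma) and Plac8 (-0.22, adjusted p = 0.372 by limma) lay below all PBS arrays under IL-4 but did not pass. These markers too were singled out after their values were seen. A log2 array value has no zero, so absence of these cells could not be read from it, and the part of any of these cells in the class II values was not tested.

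The partner chains of I-E outside the group of 10 were read beside it. H2-Ea, the alpha chain that pairs with H2-Eb1 and which some laboratory haplotypes do not express, was at 5.16, 5.52 and 5.46 under PBS, 5.64, 5.84 and 5.96 under LPS and 5.85, 6.42 and 7.53 under IL-4. Every LPS and every IL-4 array was above the PBS arrays. Neither difference passed, at 0.44 (95% interval -0.38 to 1.25) for LPS and 1.22 (0.41 to 2.04, adjusted p = 0.095 by limma) for IL-4. H2-Eb2 was between 4.79 and 5.23 on all arrays and did not pass in any comparison. H2-Ea was named after its values were seen.

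H2-DMa, the alpha chain of the exchange factor H2-DM, rose under IL-4 and was lower under LPS than under IL-4. It was at 8.37, 8.50 and 8.26 under PBS, 8.04, 8.19 and 8.12 under LPS and 9.20, 8.73 and 8.99 under IL-4. The 3 conditions did not overlap, with LPS lowest and IL-4 highest. IL-4 was above PBS by 0.59 ± 0.117 (SE) on the log2 scale (adjusted p = 0.024 by limma). LPS was -0.26 from PBS (95% interval -0.53 to 0.01, adjusted p = 0.116 by limma). LPS was below IL-4 by -0.86 ± 0.117 (adjusted p = 4.58e-04 by limma), and this passed under all 18 alternatives, whereas the IL-4 to PBS difference passed under 12 of 18. Of the single arrays, leaving out PBS replicate 1, PBS replicate 2, IL-4 replicate 1 or IL-4 replicate 3 ended that call (adjusted p = 0.0861, 0.0509, 0.0668 and 0.0989 by limma). Fibroblast markers moved with IL-4 as well. Their mean over 8 genes was 8.17 to 8.37 under PBS, 8.17 to 8.45 under LPS and 8.90 to 8.92 under IL-4, and 5 of the 8 (Dcn, Lum, Fbln1, Postn and Col3a1, by 1.21, 1.14, 0.89, 0.75 and 0.41 on the log2 scale) rose and none fell against PBS. The part of fibroblasts in the H2-DMa difference was not tested.

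The beta chains of H2-DM did not pass in any comparison in the fit over 9 arrays without a block. H2-DMb1 was at 5.39, 5.66 and 5.34 under PBS, 5.08, 5.37 and 5.10 under LPS and 5.33, 5.26 and 5.33 under IL-4. LPS arrays 1 and 3 were the lowest, and LPS replicate 2 lay among the PBS arrays. H2-DMb1 was dim, with a mean level above only 20.5% of all rows. Each LPS array was below the PBS array of its number, by -0.31, -0.29 and -0.24. Without a block the difference was -0.28 ± 0.103 (adjusted p = 0.0638 by limma), and with the replicate number as a block it was -0.28 ± 0.0868 (adjusted p = 0.039 by limma), which added H2-DMb1 as the 1 gene lower under LPS. It also passed in 4 of the other alternatives, with array weights, with quantile normalization, without PBS replicate 3 and without LPS replicate 2 (adjusted p between 0.0195 and 0.0442 by limma), and under IL-4 with array weights (-0.28, adjusted p = 0.028 by limma). H2-DMb2, the near copy beside it, was between 6.86 and 7.02 under PBS, 6.56 and 6.87 under LPS and 6.91 and 6.99 under IL-4. It was -0.18 from PBS under LPS (-0.38 to 0.01) and 0.01 under IL-4 (-0.18 to 0.21). LPS was -0.20 from IL-4, which passed without LPS replicate 1 alone (-0.27, adjusted p = 0.0435 by limma). Because the copies are alike in sequence, probes that read both could mix their signals, and the table does not show which probes each row used.

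Of the chains of H2-O, the inhibitor of H2-DM, H2-Oa rose under LPS and H2-Ob did not pass. H2-Oa was at 6.65, 6.34 and 6.26 under PBS, 7.87, 7.75 and 6.81 under LPS and 6.87, 6.81 and 6.99 under IL-4. All LPS arrays were above all PBS arrays, with LPS replicate 3 far below the other LPS arrays. The rise under LPS was 1.06 ± 0.251 (SE) on the log2 scale (adjusted p = 0.00984 by limma), at 1.22, 1.41 and 0.55 from replicate 1 to replicate 3, and it passed under 17 of 18 alternatives, all but the methods' t-test (adjusted p = 0.116). Without LPS replicate 3 it was 1.39. Under IL-4 the arrays also lay above PBS, but the difference of 0.47 did not pass (-0.10 to 1.05, adjusted p = 0.328 by limma) unless LPS replicate 3, which widens the shared spread, was left out (adjusted p = 0.0354 by limma), the arrays were weighted or 7 arrays were used. H2-Ob, its partner chain, was between 5.39 and 5.60 on all 9 arrays and did not pass in any comparison in the fit over 9 arrays. With each array centred on its median it was higher under LPS than under PBS (0.20, adjusted p = 0.0417 by limma) and than under IL-4 (0.24, adjusted p = 0.014 by limma). It had 6 distinct values over the 9 arrays, and 31.3% of all rows repeat a value, so its small differences carry little information.

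Cd74, which besides its chaperone role is a surface receptor for the cytokine MIF, was at 9.98, 10.42 and 8.83 under PBS, 10.28, 10.38 and 9.97 under LPS and 10.22, 10.26 and 10.48 under IL-4. PBS replicate 3 was the lowest of the 9 arrays, and without it the conditions overlapped in a narrow range. The differences from PBS were 0.47 for LPS (95% interval -0.33 to 1.26) and 0.58 for IL-4 (-0.22 to 1.37), and neither passed (adjusted p = 0.332 and 0.386 by limma). Without PBS replicate 3 they were 0.01 and 0.12. LPS and IL-4 differed by -0.11 (-0.90 to 0.68).

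Ciita encodes the coactivator on which transcription of class II genes largely depends. It was at 5.85, 5.92 and 5.71 under PBS, 6.23, 6.24 and 5.91 under LPS and 5.57, 5.58 and 5.64 under IL-4. All IL-4 arrays were below all PBS arrays, and LPS replicate 3 lay within the PBS range while the other LPS arrays were above it. LPS was above PBS by 0.30 ± 0.0951 (SE) on the log2 scale (adjusted p = 0.0358 by limma), at 0.38, 0.32 and 0.20 from replicate 1 to replicate 3. That call held under 7 of 17 alternatives. It was lost with PBS replicate 1, PBS replicate 3, LPS replicate 1, LPS replicate 2 or any IL-4 array left out, with adjusted p between 0.0552 and 0.119 by limma. IL-4 was -0.23 from PBS (-0.45 to -0.01, adjusted p = 0.217 by limma). Without replicate 3 of PBS and LPS this difference was -0.29 and passed (adjusted p = 0.0032 by limma). That fit kept the IL-4 arrays, which stood above the PBS and LPS arrays left in motile cilia genes. LPS was above IL-4 by 0.53 ± 0.0951 (adjusted p = 0.00211 by limma), and this passed under all 17 alternatives that tested it. Ciita was dim, with a mean level above only 27.9% of all rows, so the fit without the dimmest rows did not test it.

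**Figure D3:**
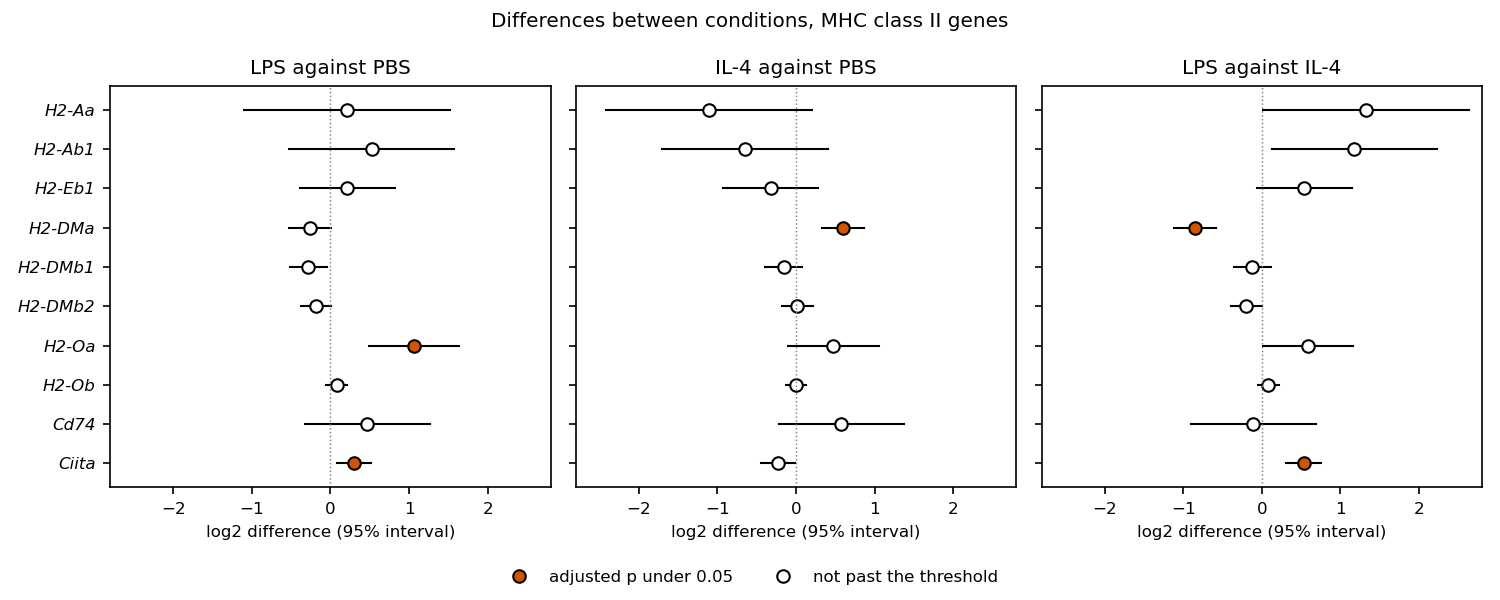
Log2 difference of each MHC class II gene in LPS against PBS, IL-4 against PBS and LPS against IL-4, with its 95% interval from limma. Filled points passed an adjusted p of 0.05, namely H2-Oa and Ciita, then H2-DMa, then H2-DMa and Ciita. The widest intervals are those of H2-Aa, from -2.42 to 0.20 for IL-4 against PBS.

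Taken over the 10 genes, the median log2 difference was 0.22 for LPS against PBS, -0.08 for IL-4 against PBS and 0.31 for LPS against IL-4, beside medians of 0.01, -0.02 and 0.03 over all rows. The arrays of the groups compared did not overlap for 2, 4 and 5 of the 10. The share of all rows without overlap was not computed, so these counts are not read as a trait of the group. The range within the group was wide in each comparison, from -0.28 (H2-DMb1) to 1.06 (H2-Oa) under LPS and from -1.11 (H2-Aa) to 0.59 (H2-DMa) under IL-4.

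Rows that followed Ciita were sought over the 9 arrays among rows spanning at least 1 on the log2 scale. The 5 most alike were Hk3 (Pearson r = 0.992), Fabp3 (0.987), Snx20 (0.985), Ptafr (0.984) and Rftn1 (0.981). Hk3, a hexokinase of myeloid cells, was at 9.15, 9.09 and 8.59 under PBS, 9.83, 9.87 and 9.17 under LPS and 8.33, 8.45 and 8.45 under IL-4, with LPS replicate 3 again the lowest LPS array. The mean of the classical chains was followed less closely, by Rps3a1 (r = 0.879), Plbd1 (0.869), Cldn1 (0.852), Mcemp1 (0.842) and Rilpl2 (0.838). These 9 points share conditions and cultures, so r is a description.

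The partners of CIITA on the promoter changed in both directions under LPS. Of 7 measured, Rfx5 (log2 difference 0.63) and Nfyb (0.67) rose, Rfxap (-0.33) and Rfxank (-0.28) fell, and Nfya, Nfyc and Creb1 did not pass. Rfx5, Rfxap and Rfxank are the 3 subunits of the RFX complex. Under IL-4 none of the 7 passed by limma, 1 was higher at an unadjusted p under 0.05 (Nfya, 0.18), and Rfx5 was at 0.12 (adjusted p = 0.38 by limma). The medians of this list, 0.01 and 0.06, were close to those of all rows.

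Of 11 measured factors that act on the Ciita gene, 6 were higher and 1 lower under LPS. Irf1, which binds the interferon-responsive promoter of Ciita, rose by 2.53, Jak2, a kinase of the interferon gamma receptor, by 2.25, Irf2 by 1.19 and Spi1, the myeloid factor PU.1, by 0.26 on the log2 scale, whereas Ifngr1, the ligand-binding chain of that receptor, fell by 0.54. Irf8 was at 0.11 and Irf4 at -0.28, and neither passed. Under IL-4, Jak2 rose by 0.62 and no other gene passed. Irf4, a factor of alternative activation, was at 7.13, 6.92 and 7.15 under IL-4 and at 6.19, 6.41 and 5.50 under PBS, a difference of 1.03 that missed the threshold (adjusted p = 0.052 by limma), and Irf8 was at -0.37 (adjusted p = 0.211 by limma).

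Of 8 known brakes on Ciita or class II transcription, 5 were higher and 1 lower under LPS, and the median log2 difference was 1.55. Socs3 (2.83) and Socs1 (2.81), which damp cytokine receptor signaling, and the cytokine Il10 (2.06) rose most, followed by Prdm1 (1.68), a repressor of Ciita, and Nfil3 (1.43), while Sin3a, a corepressor scaffold, fell by 0.46. Socs1 was at 7.49, 7.18 and 7.34 under PBS, 10.14, 10.02 and 10.28 under LPS and 8.53, 8.56 and 8.56 under IL-4, with no overlap between conditions. Under IL-4, Socs1 (1.21) and Nfil3 (1.10) rose and the other 6 did not pass.

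Endosomal enzymes that prepare peptides and trim the invariant chain changed both ways under LPS, with 2 higher and 4 lower of 10. Sppl2a, the protease that clears the last membrane stub of the invariant chain, rose by 0.79 and Ctsc by 0.73, whereas the thiol reductase Ifi30 fell by 0.64 and Lgmn, a protease that cuts after asparagine, by 0.52. Ctss, the cathepsin that trims the invariant chain in many antigen-presenting cells, was -0.23 from PBS and missed the threshold (adjusted p = 0.0537 by limma). Under IL-4 none of the 10 passed by limma, and 3 were lower at an unadjusted p under 0.05. Ctss was at -0.13 (adjusted p = 0.419 by limma).

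Genes for the surface turnover of class II and the receptors that work with Cd74 changed in both directions. Under LPS, 3 of 6 were higher and 2 lower. Cxcr4 fell by 2.58 and Cd44 rose by 1.41, both of which are coreceptors of Cd74. Marchf1, the ubiquitin ligase that sends class II to lysosomes, rose by 0.77, its relative Marchf8 fell by 0.35, and Cd83, which opposes Marchf1, rose by 1.31. Under IL-4, Cd83 (0.94) and Cd44 (0.50) rose, Cxcr4 fell by 0.81, Mif fell by 0.42, and Marchf1 was at 0.22 (adjusted p = 0.0723 by limma).

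**Figure D4:**
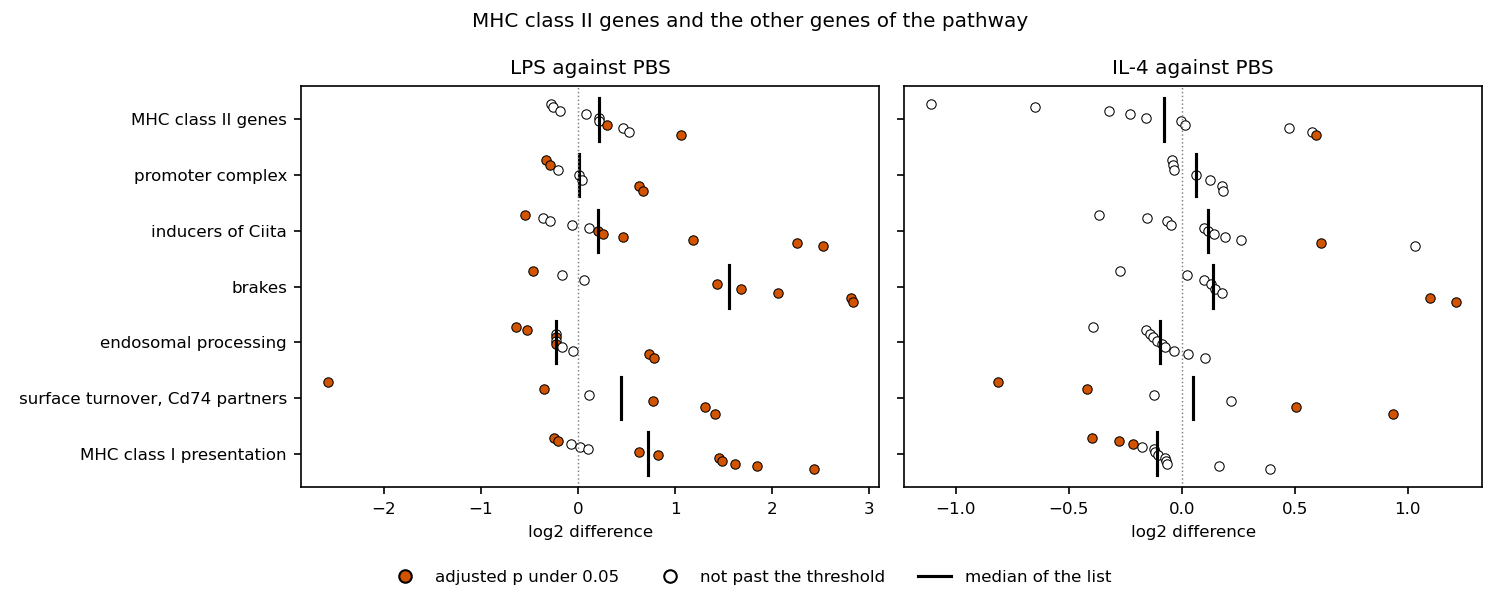
Log2 difference in LPS against PBS (left) and IL-4 against PBS (right) for the 10 MHC class II genes and 6 lists of genes of the same pathway, with 1 point per gene. Filled points passed an adjusted p of 0.05 by limma and vertical bars are medians, which under LPS were 0.22 for the class II genes, 1.55 for the brakes and 0.72 for MHC class I presentation.

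The MHC class I pathway, which loads peptides from the cytosol, was read from 12 genes. Under LPS, 7 of 12 measured genes were higher and 2 lower, with Tap1 (2.43), Tap2 (1.84) and Psmb10 (1.61) first. The remaining 3, which encode chains of the class I molecule itself, stayed near PBS and missed the threshold. Their log2 differences were -0.07 for B2m, 0.02 for H2-D1 and 0.11 for H2-K1 (adjusted p = 0.321, 0.804 and 0.177 by limma). Under IL-4, 3 of 12 were lower and none higher, namely Tap1 (-0.40), Psmb8 (-0.28) and Tapbp (-0.22).

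These pathways meet in 1 stretch of chromosome 17, where class II genes and class I transporter and proteasome genes alternate. In the gene order of GRCm38.p6, 15 measured genes run from H2-Oa through Brd2, H2-DMa, H2-DMb2, H2-DMb1, Psmb9, Tap1, Psmb8, Tap2, H2-Ob, H2-Ab1, H2-Aa, H2-Eb1 and H2-Eb2 to H2-Ea. Under LPS, 1 of the 8 class II genes of the group (H2-Oa) rose, beside 15.4% of all rows called higher. This count is therefore not read as a trait of class II genes. Among the 7 others 5 rose, which were Brd2, Psmb9, Tap1, Psmb8 and Tap2. The rest of these, H2-Eb2 and H2-Ea, are class II genes outside the group and did not pass. Tap1 was at 8.82, 8.85 and 8.93 under PBS and 11.31, 11.26 and 11.31 under LPS. Under IL-4, H2-DMa rose, and Tap1 and Psmb8 fell, beside 3.35% of all rows called higher and 2.05% lower. H2-Oa, which passed under LPS, and H2-DMa, which passed under IL-4, stand at the end of the stretch away from the classical chains, with Brd2 between them. Neither passed under the other stimulus. H2-DMb2 and H2-DMb1, next to H2-DMa at the same end, passed under neither, so no pattern of position is read.

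**Figure D5:**
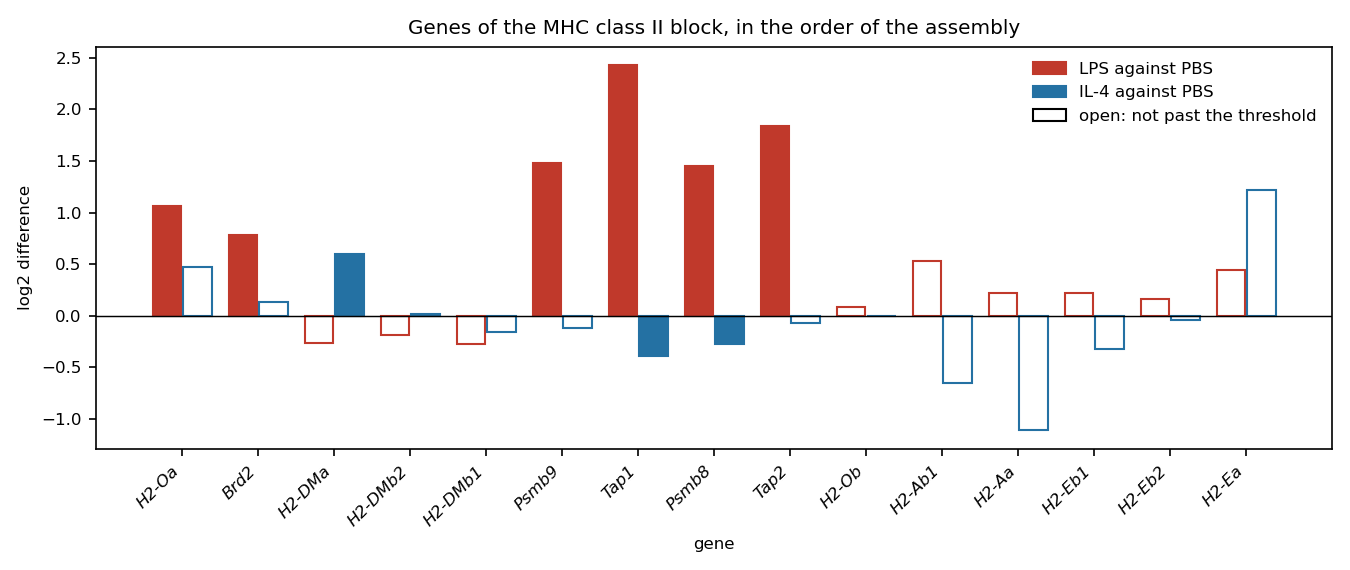
Log2 difference in LPS against PBS and IL-4 against PBS for the 15 measured genes of the MHC class II block, placed by gene order and not by distance. Filled bars passed an adjusted p of 0.05 by limma. Under LPS the filled bars are H2-Oa, Brd2, Psmb9, Tap1, Psmb8 and Tap2, and under IL-4 H2-DMa, Tap1 and Psmb8.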

How the data were processed

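Total RNA of 9 cultures was labelled with biotin and hybridised to 9 Affymetrix Mouse Exon 1.0 ST arrays. The authors deposited log2 expression values made with RMA in the affy package, which corrects background, quantile-normalizes arrays and summarizes probes (versions and genome build not given in the sources used here). The table held 21212 rows without missing values, from 2.05 to 13.06, with array medians between 7.20 and 7.39. Symbols came from the platform annotation, which gave 1 symbol to 18786 rows, several to 6 and none to 2420. The number of arrays limits the precision. Nothing states that arrays of a condition came from separate litters, so p-values measure the spread between these arrays.

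Conditions were compared with limma 3.58.1 (lmFit and eBayes, R 4.3.3) on all rows and 9 arrays, with Benjamini-Hochberg adjustment and calls at an adjusted p under 0.05. The fit had 6 residual and 2.38 prior degrees of freedom, intervals cover 95%, and the code was tested on simulated data. The alternatives were the per-gene t-test that the study names, the 6 arrays of a comparison alone, an intensity trend, array weights, renewed quantile normalization, median centring, leaving out the dimmest 33.3% of rows, a replicate block, each array left out and 7 arrays without replicate 3 of PBS and LPS.

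Named were all 10 genes, and of each pathway list the 3 genes with the largest change among those that passed in LPS or IL-4 against PBS, with Rfx5, Irf1, Irf4, Irf8, Spi1, Socs1, Ctss, Marchf1 and Cd83 throughout. Others are given where a count was small. The genes, lists and settings were chosen with earlier results of these data known. The replicate numbers in the labels paired LPS with PBS, since deviations from the condition means correlated at 0.58, 0.65 and 0.80 for replicates 1 to 3. Replicates 1 and 2 also correlated across numbers (0.54 and 0.61), so the numbers set apart replicate 3 alone. They did not pair IL-4 with PBS (0.34, -0.26 and 0.08) or with LPS (0.29, -0.23 and 0.06). Promoter windows and gene order came from RefSeq on GRCm38.p6.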

Additional observations from a re-analysis of the deposited data

How the results depend on the processing

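The higher H2-DMa under IL-4 than LPS kept its call under 18 of 18 alternatives and the higher H2-Oa under LPS than PBS under 17 of 18. The higher Ciita under LPS than IL-4 kept its call under the 17 of 17 that tested it, since Ciita was among the dimmest rows. For LPS against PBS, the count of genes called higher was 2, and it was 0 by the t-test and 1 with 6 arrays, with quantile normalization and without the dimmest rows, and 3 with median centring, which added H2-Ob. The count called lower was 0, and it was 2 with array weights, 1 with quantile normalization and 1 with the replicate block. With single arrays left out these counts ran from 1 to 2 and from 0 to 1. Over all rows of LPS against PBS, single arrays left out gave 2736 to 3860 higher and 3944 to 4955 lower calls. The other alternatives gave 2253 to 5872 higher and 3050 to 6144 lower calls over all rows, with the fewest of both by the t-test. For IL-4 against PBS, the count called higher was 1, and it was 0 by the t-test and with 6 arrays, 2 with array weights and 2 with 7 arrays. The count called lower was 0, and it was 4 with array weights (H2-Aa, H2-Ab1, H2-DMb1 and Ciita) and 2 with 7 arrays (H2-Aa and Ciita). With single arrays left out the counts ran from 0 to 2 and stayed at 0. Over all rows, the other alternatives gave 434 to 4136 higher and 282 to 4159 lower calls. For LPS against IL-4, the count called higher was 1, and it was 3 with 6 arrays, 3 with array weights, 4 with median centring, 4 with 7 arrays and 0 without the dimmest rows, which removed Ciita. With single arrays left out the counts ran from 1 to 4 and, for lower, from 1 to 2. Over all rows, single arrays left out gave 3105 to 5220 higher and 4500 to 6007 lower calls. The other alternatives gave 3036 to 9567 higher and 3697 to 6851 lower calls over all rows. The replicate block changed no call but that of H2-DMb1.

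Differences that changed sign were all uncalled. For LPS against PBS they were H2-Aa (-0.39 with array weights, -0.09 with 7 arrays, -0.33 to 0.83 with single arrays left out), H2-Ab1 (-3.11e-04 with array weights) and H2-Eb1 (-0.056 with array weights). For IL-4 against PBS they were H2-DMb2 (-0.051 with array weights, -0.015 with quantile normalization, -0.026 with median centring, -0.0057 with 7 arrays, -0.015 to 0.063 with single arrays left out) and H2-Ob (0.0038 with array weights, 0.065 with quantile normalization, 9.89e-04 with 7 arrays, -0.0079 to 0.0041 with single arrays left out). For LPS against IL-4 they were H2-Ob (-0.049 with quantile normalization), H2-DMb1 (0.033 with median centring) and Cd74 (0.044 with median centring, 0.00991 with 7 arrays, -0.194 to 0.00991 with single arrays left out). Median centring moved all rows of LPS against IL-4 up by 0.15. Over all rows, IL-4 against PBS gave 711 higher and 435 lower calls, and these ran from 281 to 1067 and from 185 to 966 with single arrays left out and reached 4136 and 4159 with array weights. The cause of these shifts was not tested.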
